A study of Homo sapiens and Mus musculus with 41 samples.

Results

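Mucins are long glycoproteins whose central stretches of repeats rich in serine, threonine and proline carry dense O-linked sugars. The genes described here are 9 mucin genes, MUC1, MUC2, MUC4, MUC5AC, MUC5B, MUC13, MUC15, MUC16 and MUC20, taken by symbol, whatever its letter case, from the 4 deposited tables of normalized counts. They were selected on measured values of the same tables, and which values served for that is not recorded. Their levels and differences are therefore given as a description, without p-values. Of the 9 genes, 8 had a row among the 23368 rows of each human table and 7 among the 23337 rows of the mouse table.

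The study profiled polyadenylated RNA in 41 libraries of cultured, GFP-expressing tumour cells of 4 models and asked, as far as its labels tell, which genes differ in cells that had grown in the leptomeninges, the membranes around the brain and spinal cord. HCC1954 is a human line of grade III invasive ductal breast carcinoma in which HER2/Neu is elevated. PC9 is a human lung adenocarcinoma line with elevated EGFR, MDA-MB-231 a human triple negative breast carcinoma line, and LLC the mouse Lewis lung carcinoma line. In each model, Lep denotes the leptomeningeal metastatic derivative, BrM a brain metastatic derivative, Int an intermediate derivative and Par the parental line. The numbers of Lep, BrM, Int and Par libraries were 3, 2, 2 and 3 in HCC1954, 2, 3, 2 and 3 in PC9 and in MDA-MB-231, and 3, 3, 2 and 3 in LLC. The protocol, the same for all libraries, tells of cells rinsed out of the leptomeningeal space of mice, cultured until all were GFP-positive and passaged before RNA was taken. It does not mention BrM cells, and how these were obtained is not stated in the labels. Every library describes cells in culture. The Par replicates are technical, and those of Int and Lep mix technical with biological ones. SDs, standard errors and the p-values of other genes thus rest on the spread between libraries, which may be technical.

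Gel-forming mucins are secreted and link to each other through cysteine-rich ends to build mucus. MUC5B and MUC5AC are those of the airways and MUC2 that of the intestine. Membrane mucins are anchored in the apical surface of epithelial cells, where they extend a sugar-coated rod above it, and part of that ectodomain is shed. MUC16 carries the tumour marker epitope CA125, MUC1 the epitope CA15-3, and MUC4 can bind the receptor ERBB2. MUC13, MUC15 and MUC20 are smaller membrane mucins, and MUC20 was described as a partner of the receptor MET.

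Each deposited value is a gene's number of reads after scaling by the library's size factor. Since a library's values were whole multiples of 1 step, the reads behind them could be recovered (100% of values within a tolerance of 0.01). HCC1954 libraries held between 25330801 and 67367833 such reads, PC9 libraries between 16792027 and 38432963, MDA-MB-231 libraries between 23508951 and 110830546, and LLC libraries between 18029707 and 67939274. A gene with 0 reads could, by counting error alone, have had 3 reads, or between 1.31 and 6.55 normalized counts depending on the library. A gene was tested in a model if it reached 10 normalized counts in at least 2 libraries. Of the mucin genes with a row, 7 passed in HCC1954, 6 in PC9, 5 in MDA-MB-231 and 1 in LLC. A gene is said to be called in a comparison if limma gave a Benjamini-Hochberg adjusted p under 0.05 over all tested genes and a log2 fold change of at least 1 in size. Levels were compared within a model only, because the 4 tables were normalized separately.

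To show what the counted genes look like, promoters are given for MUC1, MUC4 and MUC16, the membrane mucins past the filter in both HCC1954 and PC9 that the promoter table holds, as 250 bases before and 50 bases after the start of transcription on the gene's own strand. They come from RefSeq, whose table covers 5 of the 9 genes with 7 entries on build GRCh38.p14, whereas the deposited counts were made on GRCh37. Capitals mark matches, on either strand, to any of 7 motifs. The TATA box was searched as TATAAA and the GC box, a motif of Sp proteins, was searched as GGGCGG. For the box named after its letters, CCAAT, those letters were searched, and the GAS element, which activated STAT proteins bind, was searched as TTCNNNGAA. An AP-1 site (as TGANTCA), an E-box (as CACGTG, the letters of the canonical form) and a GATA site (as AGATAA) were searched too and were not in these 3 windows. The MUC1 window lies at chr1:155192866-155193165 on the minus strand, that of MUC4 at chr3:195811880-195812179 on the minus strand, and that of MUC16 at chr19:9065702-9066001 on the minus strand.
MUC1: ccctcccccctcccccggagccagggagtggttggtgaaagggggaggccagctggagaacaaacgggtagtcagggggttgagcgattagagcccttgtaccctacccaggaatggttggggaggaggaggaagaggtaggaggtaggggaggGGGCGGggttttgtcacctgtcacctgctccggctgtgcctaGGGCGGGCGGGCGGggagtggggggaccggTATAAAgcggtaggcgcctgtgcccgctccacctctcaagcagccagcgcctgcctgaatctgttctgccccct
MUC4: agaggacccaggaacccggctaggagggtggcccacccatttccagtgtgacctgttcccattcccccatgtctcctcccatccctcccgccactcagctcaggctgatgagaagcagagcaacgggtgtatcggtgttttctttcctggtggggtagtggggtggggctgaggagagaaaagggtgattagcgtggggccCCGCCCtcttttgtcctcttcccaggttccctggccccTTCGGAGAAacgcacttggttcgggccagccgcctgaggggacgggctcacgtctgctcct
MUC16: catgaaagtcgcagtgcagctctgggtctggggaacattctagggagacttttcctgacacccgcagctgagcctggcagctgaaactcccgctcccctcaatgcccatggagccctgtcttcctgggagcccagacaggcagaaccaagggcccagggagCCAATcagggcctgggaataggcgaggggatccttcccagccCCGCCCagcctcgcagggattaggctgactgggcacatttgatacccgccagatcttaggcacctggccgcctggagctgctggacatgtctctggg

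The MUC1 window held a TATA box that begins 24 bases before the start and 4 GC boxes, 3 of them overlapping. MUC4 held a GC box on the opposite strand and a GAS element that begins 11 bases before the start, and MUC16 a CCAAT box at 89 bases and a GC box on the opposite strand at 47 bases before the start. Another RefSeq entry of MUC16, at chr19:9010360-9010659, is not printed. Of the 7 motifs it held only an AP-1 site, 136 bases before its start. Of 35116 RefSeq promoter windows of the same length, counting both strands, 11.5% held the TATA box, 45.0% the GC box, 34.6% the CCAAT box, 7.66% the GAS element, 7.71% the AP-1 site, 7.26% the E-box and 10.3% the GATA site. Such a match is a description of letters, and binding was not measured in these samples.

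The coding repeats matter for how reads of 50 or 75 bases were counted, and the most frequent exact repeat unit is printed for MUC1 and MUC4. In both it is longer than a 50-base read, and the other mucin genes were not searched for such a unit. In a GENCODE v29 transcript of MUC1 of 4170 bases, a unit of 60 bases, which encodes the repeat peptide that carries most of the protein's O-linked sugars, stood in 19 exact copies. In a MUC4 transcript of 17110 bases, a unit of 96 bases stood in 7 exact copies.
MUC1 unit: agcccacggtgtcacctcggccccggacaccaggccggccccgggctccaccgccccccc
MUC4 unit: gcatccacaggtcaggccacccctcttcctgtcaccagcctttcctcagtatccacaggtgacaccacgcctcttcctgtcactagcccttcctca

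Of all 50-base windows, 42.4% occurred more than once within the MUC1 transcript, 29.2% within MUC5B, 28.3% within MUC4, 21.4% within MUC2 and 1.07% within MUC16. Among these genes only MUC5B also shared windows with another gene, at 0.37%. The part of repeats within a gene in its counts was not tested. MUC20 differed, since 69.1% of its 50-base windows and 64.3% of its 75-base windows were also found in transcripts of another gene, and 42.8% of its exonic bases overlapped MUC20-OT1 on the same strand. Its counts are uncertain for that reason in the human models, and mouse Muc20 was not examined for it. Antisense exons covered 2.33% of the exonic bases of MUC5B (MUC5B-AS1) and 4.92% of those of MUC15 (ANO3). The TruSeq v2 kit does not mark strand, so reads from these overlaps cannot be assigned to 1 of the genes.

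In HCC1954, the large mucins MUC5B, MUC16 and MUC4 were lower in Lep, BrM and Int than in Par cells, while MUC1 and MUC20 were highest in BrM cells. The gel-forming mucin gene MUC5B had 389, 377 and 401 normalized counts in the 3 Lep libraries, 3739 and 3433 in BrM, 874 and 861 in Int, and 9865, 8201 and 9704 in Par. The 4 stages did not overlap, with Lep lowest and Par highest. The Lep mean of 389 ± 12.0 (SD, n = 3) was 23.8-fold below the Par mean of 9257 ± 917 (n = 3), a log2 fold change of -4.56 ± 0.06 (standard error), and Lep was also below Int by a log2 fold change of -1.15 ± 0.07. MUC2, the intestinal gel-forming mucin, stayed near the filter on low values. It had 4.69, 13.0 and 11.3 normalized counts in Lep, 32.4 and 20.9 in BrM, 13.7 and 19.9 in Int, and 5.48, 4.74 and 1.32 in Par. Lep and Par overlapped, and the log2 fold change of 1.17 ± 0.44 for Lep over Par fell to 0.70 without Par replicate 3, to 0.92 without Lep replicate 2 and to 1.01 without Lep replicate 3, none of which was called. It was called neither by edgeR (1.23) nor by DESeq2 (1.29), nor with a pseudocount of 8 (0.56).

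MUC16, the largest membrane mucin, had 1429, 1512 and 1620 normalized counts in HCC1954 Lep, 9535 and 10531 in BrM, 1273 and 1227 in Int, and 16081, 15067 and 15574 in Par. Lep and Int lay close together, BrM and Par well above them, and no 2 stages overlapped. The Lep mean of 1520 ± 95.7 was 10.2-fold below the Par mean of 15574 ± 507, with log2 fold changes of -3.36 ± 0.05 for Lep over Par and -3.64 ± 0.05 for Int over Par, against -0.64 ± 0.05 for BrM over Par. MUC4 had 1433, 1569 and 1356 normalized counts in Lep, 445 and 442 in BrM, 336 and 570 in Int, and 3146, 3141 and 3271 in Par. Here BrM and Int overlapped at the low end, Lep lay between and Par was highest. MUC4 was lower in Lep than in Par (log2 fold change -1.13 ± 0.13) but higher in Lep than in Int (1.73 ± 0.15) and than in BrM (1.71 ± 0.15).

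MUC1 followed another order in HCC1954. It had 3629, 3797 and 3807 normalized counts in Lep, 11797 and 12558 in BrM, 6443 and 6116 in Int, and 3586, 3599 and 3690 in Par. Lep overlapped Par, with a log2 fold change of 0.05 ± 0.03 that became -0.04 with quantile normalization. BrM libraries were above all others, 3.36-fold over the Par mean (log2 fold change 1.75 ± 0.04). MUC20 had 1978, 2130 and 1895 normalized counts in Lep, 6213 and 6345 in BrM, 3215 and 3214 in Int, and 2870, 2938 and 2912 in Par. It was thus also highest in BrM (log2 fold change over Par 1.11 ± 0.04), and lowest in Lep (-0.54 ± 0.04 over Par, under the fold threshold). MUC15 was low throughout, with 10.6, 10.8 and 11.3 normalized counts in Lep, 29.8 and 42.8 in BrM, 6.32 and 3.67 in Int, and 3.29, 0 and 7.91 in Par. Every Lep and BrM library exceeded every Par library, and the log2 fold change of 1.82 ± 0.59 for Lep over Par was 0.94, and no longer called, without Par replicate 2, the library at 0, and 0.74, also not called, with a pseudocount of 8. Neither of the 2 genes called higher in HCC1954 Lep over Par, MUC2 and MUC15, was thus called with that pseudocount. MUC13 had 3 reads in all 10 libraries together.

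**Figure D1:**
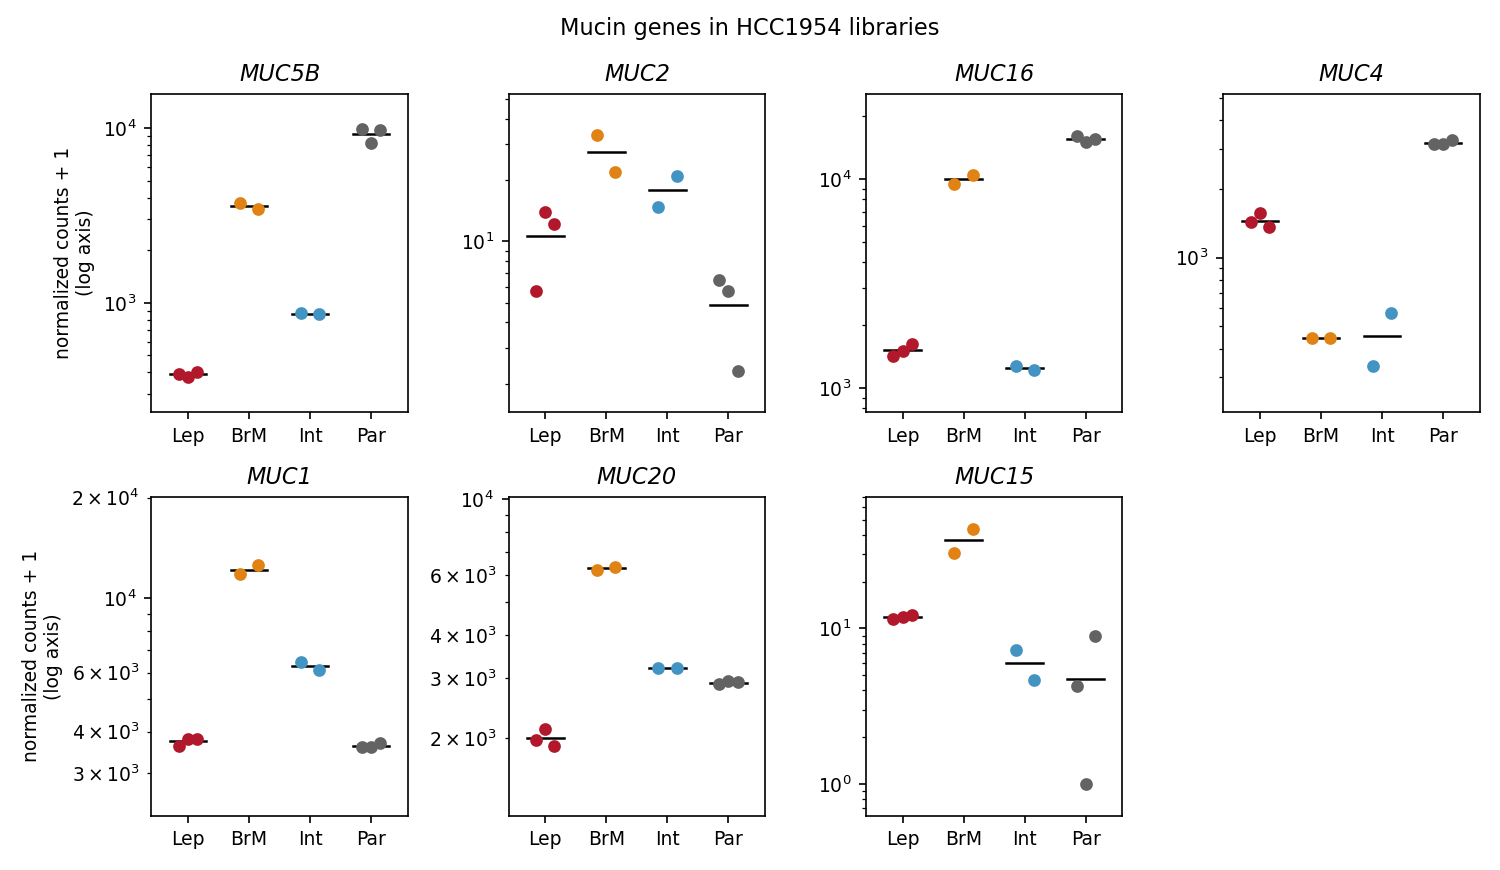
Normalized counts plus 1, on log axes, of the 7 mucin genes past the filter in HCC1954, for each Lep, BrM, Int and Par library (points) with the stage mean (line). MUC5B, MUC16 and MUC4 are highest in Par, whereas MUC1 and MUC20 are highest in BrM at 11797 to 12558 and 6213 to 6345 normalized counts.

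In PC9, 5 mucin genes, MUC5B, MUC16, MUC4, MUC1 and MUC20, were higher in both Lep and Int cells than in Par cells, and MUC5B, MUC16 and MUC20 were lower in BrM than in Par cells. MUC5B had 3638 and 4337 normalized counts in Lep, 14.1, 14.4 and 12.5 in BrM, 2459 and 3056 in Int, and 623, 761 and 720 in Par. The stages did not overlap, and BrM lay far below the other 3. The Lep mean of 3988 ± 494 (n = 2) was 291-fold above the BrM mean of 13.7 ± 1.03 (n = 3) and 5.69-fold above the Par mean of 701 ± 70.8 (n = 3). The log2 fold changes were 2.51 ± 0.12 for Lep over Par, 1.97 ± 0.12 for Int over Par and -5.58 ± 0.11 for BrM over Par.

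MUC16 had 6650 and 8775 normalized counts in PC9 Lep, 1044, 1122 and 766 in BrM, 5027 and 6569 in Int, and 2368, 2727 and 3405 in Par. Lep lay just above Int, both above Par, and BrM below Par. The log2 fold changes over Par were 1.45 ± 0.18 for Lep, -1.54 ± 0.16 for BrM and 1.04 ± 0.18 for Int. The Int value was 0.84 without Int replicate 2 and 0.91 without Par replicate 1, under the threshold. MUC4 had 3778 and 2749 normalized counts in Lep, 1219, 1286 and 1215 in BrM, 2358 and 2382 in Int, and 904, 978 and 1107 in Par. Unlike MUC5B and MUC16, its BrM libraries were not below Par but slightly above it (log2 fold change 0.32 ± 0.10), while Lep was higher (1.70 ± 0.11) and Int higher (1.25 ± 0.11).

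MUC1 had 1904 and 1291 normalized counts in PC9 Lep, 385, 472 and 380 in BrM, 1586 and 1676 in Int, and 332, 462 and 373 in Par. The libraries formed 2 levels, with Lep and Int overlapping at the high one and BrM and Par at the low one. The log2 fold changes over Par were 2.02 ± 0.16 for Lep and 2.08 ± 0.16 for Int, against 0.09 ± 0.15 for BrM. MUC20 had 1732 and 2645 normalized counts in Lep, 331, 462 and 336 in BrM, 1715 and 1708 in Int, and 725, 839 and 725 in Par. Lep and Int were above Par (1.49 ± 0.17 and 1.17 ± 0.17) and BrM below it (-1.03 ± 0.15, a call lost without BrM replicate 1, BrM replicate 3 or Par replicate 2, at -0.95, -0.96 and -0.96). MUC15 had 8.07 and 15.9 normalized counts in Lep, 0 in each BrM library, 5.03 and 10.7 in Int, and 3.68, 7.33 and 0 in Par. Against 0 reads in BrM no fold is given. MUC2 stayed below the filter, at most 5.13 normalized counts, and MUC13 had 1 read in 10 libraries.

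**Figure D2:**
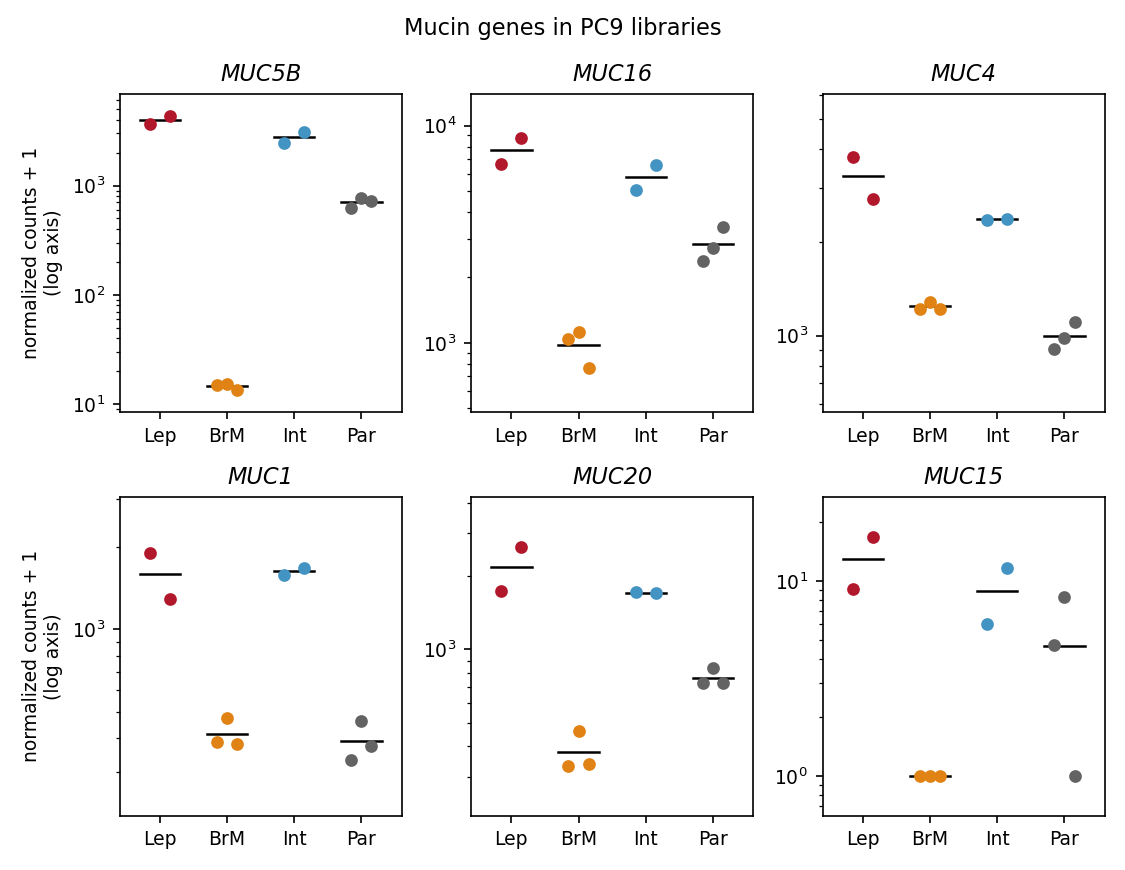
Normalized counts plus 1, on log axes, of the 6 mucin genes past the filter in PC9, for each Lep, BrM, Int and Par library (points) with the stage mean (line). MUC5B is at 3638 to 4337 in Lep and 12.5 to 14.4 in BrM, and MUC1 shows a high pair of stages (Lep, Int) and a low pair (BrM, Par).

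In MDA-MB-231, the gel-forming mucin genes MUC5B and MUC2 were higher in Int than in Par cells, and the Lep libraries lay between these with a wide spread. MUC5B had 610 and 96.4 normalized counts in Lep, 10.7, 15.4 and 7.88 in BrM, 942 and 1070 in Int, and 22.2, 4.93 and 4.85 in Par. Both Int libraries exceeded both Lep libraries, which exceeded all BrM and Par libraries. The log2 fold change of Int over Par was 6.76 ± 0.80. It was 6.85 without Int replicate 1 and 6.66 without Int replicate 2, and in neither case called. MUC2 had 38.1 and 17.2 normalized counts in Lep, 0, 6.16 and 0 in BrM, 126 and 84.7 in Int, and 0 in each of the 3 Par libraries. The order of stages was that of MUC5B. With Par at 0 reads no fold is given, and the call of Int over Par was lost without either Int library.

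The membrane mucins of MDA-MB-231 were led by MUC15, which had 186 and 657 normalized counts in Lep, 997, 535 and 643 in BrM, 315 and 396 in Int, and 379, 243 and 367 in Par. Lep and Int overlapped Par, and BrM was above Par in every library (log2 fold change 1.11 ± 0.44, not called). MUC1 had 24.4 and 77.7 normalized counts in Lep, 47.2, 55.5 and 39.4 in BrM, 40.2 and 47.1 in Int, and 9.07, 20.6 and 17.8 in Par. All 7 libraries of the derivatives exceeded the 3 Par libraries, but limma called no difference over Par with all libraries (log2 fold changes 1.48 ± 0.51 for Lep, 1.58 ± 0.46 for BrM and 1.48 ± 0.51 for Int). Int over Par was called by DESeq2 (1.46), and by limma without Lep replicate 1 or Lep replicate 2 (1.48). MUC20 stayed between 1.62 and 17.2 normalized counts with overlapping stages. MUC4, MUC13 and MUC16 did not pass the filter.

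**Figure D3:**
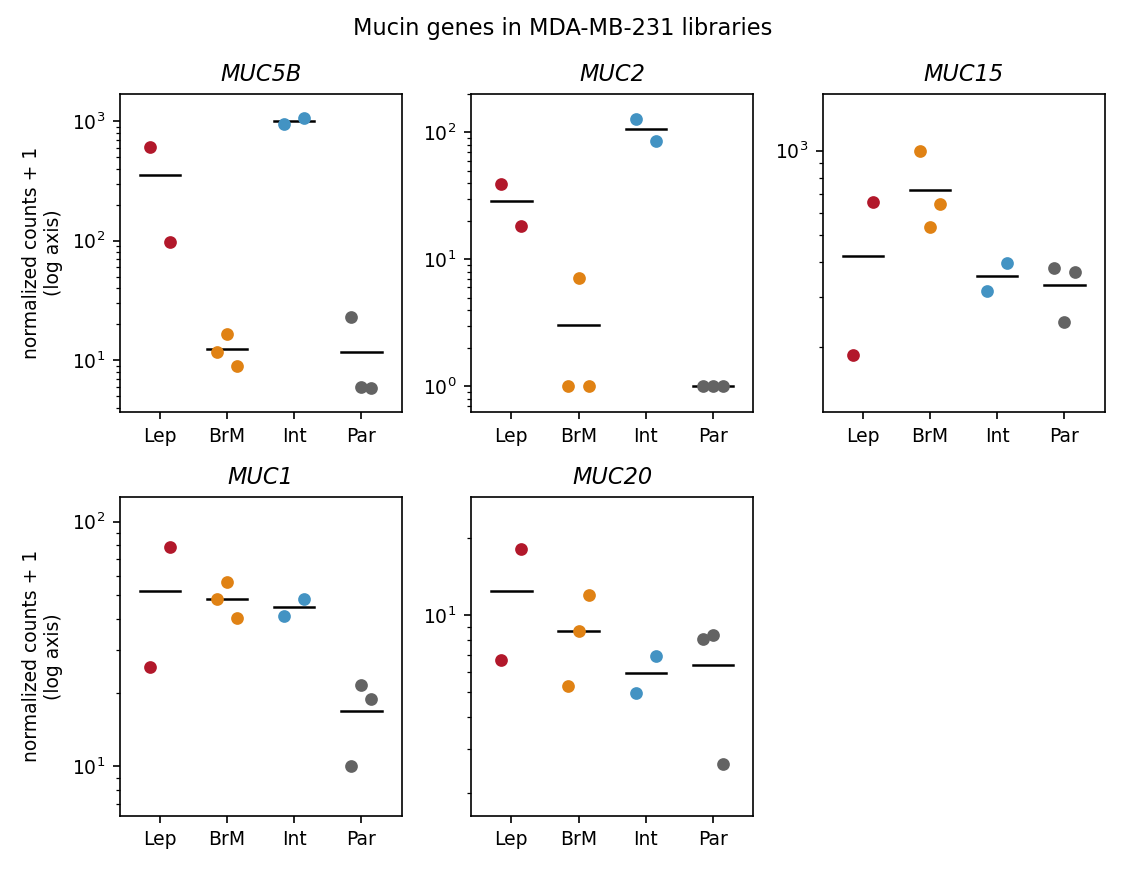
Normalized counts plus 1, on log axes, of the 5 mucin genes past the filter in MDA-MB-231, for each Lep, BrM, Int and Par library (points) with the stage mean (line). MUC5B and MUC2 are highest in Int, at 942 to 1070 and 84.7 to 126 normalized counts, and the 2 Lep libraries of MUC5B lie far apart at 610 and 96.4.

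In LLC, Muc1 was the only mucin gene past the filter, with 6.34 to 34.5 normalized counts over the 11 libraries, a median of 13.2 and overlapping stages. Its log2 fold change was 0.01 ± 0.46 for Lep over Par. Muc5b reached at most 2.56 and Muc13 at most 2.38 normalized counts, and Muc5ac had 0 reads in all 11 libraries. MUC5AC was not analysed in the human models, nor MUC2 and MUC16 in LLC.

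Set beside all tested genes, Lep over Par called 5 of 7 mucin genes in HCC1954 (2 higher, 3 lower), where 26.8% of all tested genes were called, 13% higher and 13.8% lower. It called 5 of 6 in PC9, all higher, where 15.1% of all genes were called, 6.65% higher and 8.49% lower. In MDA-MB-231, limma and edgeR called 0 of 5 and DESeq2 called 2, MUC2 and MUC5B. At an unadjusted limma p under 0.05 there were 3, beside 1599 of 15106 tested genes. In that model limma called 0.0662% of all genes, 0.0199% higher and 0.0463% lower, while DESeq2 called 274 of all genes. In LLC limma, edgeR and DESeq2 called 0 of 1, with 0 at an unadjusted limma p under 0.05, beside 7549 of 13494 tested genes. There limma called 20.3% of all genes, 8% higher and 12.3% lower. MUC2 and MUC15 in HCC1954 and MUC2 in MDA-MB-231 passed the filter only through libraries of derivatives. Their calls as higher than in Par thus follow in part from the filter. Since the genes were selected on these tables, nothing is read from such shares. The median log2 fold change of the tested mucin genes in Lep over Par was -0.54 in HCC1954, against -0.02 over all tested genes. In PC9 the tested mucin genes ranged from 1.45 for MUC16 to 2.51 for MUC5B, against a median of 0.02 over all tested genes.

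In the other comparisons, which share libraries with each other, the counts were as follows. Lep over Int called 2 of 7 mucin genes in HCC1954 (15.1% of all genes), 0 of 6 in PC9 (0.608%), 0 of 5 in MDA-MB-231 (0.159%) and 0 of 1 in LLC (22.5%), and edgeR and DESeq2 also called 0 in PC9 and MDA-MB-231. At an unadjusted limma p under 0.05 there were 2 in PC9, 1 in MDA-MB-231 and 0 in LLC. Over all tested genes there were 2563 of 14475 in PC9, 2117 of 15106 in MDA-MB-231 and 7381 of 13494 in LLC. Int over Par called 4, 5, 2 and 0 in the same order of models, against 21.2%, 13.9%, 6.94% and 11.5% of all genes. BrM over Par called 6, 3, 0 and 0, against 23.6%, 7.72%, 0.45% and 23.2%, where in MDA-MB-231 edgeR and DESeq2 also called 0. There 2 mucin genes had an unadjusted limma p under 0.05, beside 2347 of 15106 tested genes. The counts over Par include calls of genes that passed the filter only through libraries of derivatives, and which follow in part from the filter. These are MUC2 (Int and BrM) and MUC15 (BrM) in HCC1954 and MUC2 (Int) in MDA-MB-231. MUC5B (Int) in MDA-MB-231 also needed derivative libraries to pass, since of the Par libraries only replicate 1 reached 10 normalized counts. Lep over BrM called 7 of 7, 6 of 6, 1 of 5 and 0 of 1, against 17.1%, 18.6%, 0.827% and 18%. In HCC1954 only MUC4 was higher in Lep than in BrM and 6 were lower, while in PC9 all 6 were higher. One of these was MUC15, which passed the filter only through Lep replicate 2 and Int replicate 2. It had 0 reads in every BrM library. Its call follows in part from the filter, and the size of its limma fold change depends on the pseudocount. On recovered reads, edgeR and DESeq2 called it too. The HCC1954 call of MUC15 (log2 fold change -1.63) was lost without either BrM library, any Lep library or Par replicate 1, at -1.88 to -1.37. That of MUC2 (-1.45) was lost without BrM replicate 1 (-1.14) or Lep replicate 1 (-1.05). The single call in MDA-MB-231, MUC5B in Lep over BrM (log2 fold change 4.35 ± 0.80), was lost in 7 of 10 fits that left out 1 library, 3.03 without Lep replicate 1 being the lowest value.

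**Figure D4:**
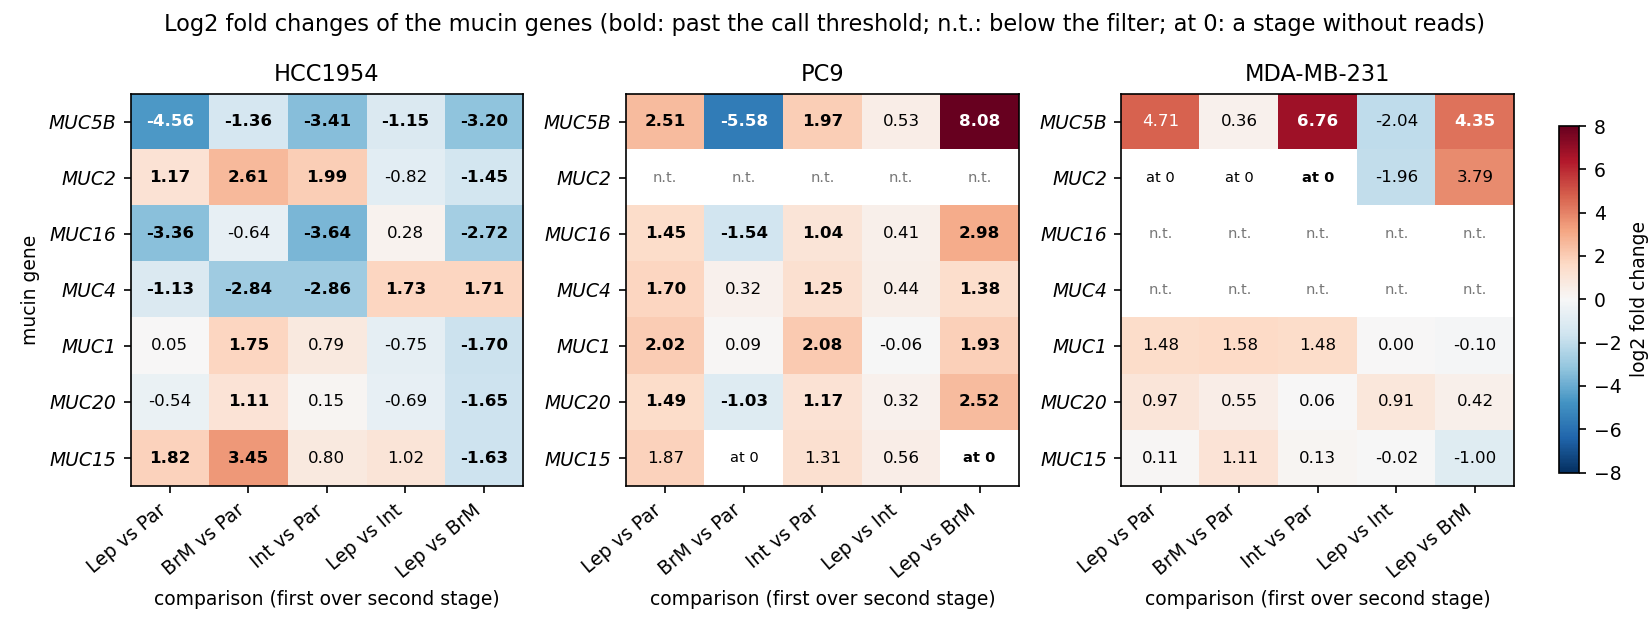
Log2 fold changes, as colours and printed values, of 7 mucin genes in 5 comparisons of HCC1954, PC9 and MDA-MB-231; positive values mean higher in the stage named first. Values in bold passed the call threshold, n.t. marks genes below the filter, and the words at 0 replace the value where a stage had no reads (MUC15 in PC9 BrM and MUC2 in MDA-MB-231 Par).

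Levels of different genes can be compared only per length. The share of repeated 50-base windows also differed between the genes, at 42.4% in MUC1 and 1.07% in MUC16, and MUC20 counts are uncertain. The part of these in the order of genes was not tested. Per kilobase of exonic sequence (GENCODE v29, 43830 bases for MUC16 and 4717 for MUC1), MUC1 was the most abundant mucin RNA in each HCC1954 stage, at 794 normalized counts per kilobase in Lep, 2582 in BrM, 1331 in Int and 768 in Par. MUC20 followed in each stage (471 in Lep and 684 in Par), then in Par MUC5B (498), MUC16 (355) and MUC4 (149). In HCC1954 Lep, MUC4 (68.1), MUC16 (34.7) and MUC5B (20.9) stood in the opposite order. In PC9 Lep the levels per kilobase were 515 for MUC20, 339 for MUC1, 214 for MUC5B, 176 for MUC16 and 153 for MUC4, and in PC9 Par 180, 82.5, 37.7, 64.6 and 46.7. In MDA-MB-231, MUC15 led with 118 in Lep, 204 in BrM, 100.1 in Int and 92.7 in Par.

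The sugars of mucins are added by polypeptide GalNAc transferases (the GALNT genes), extended by core and capping enzymes, and the secreted mucins are made by a mucous programme with its transcription factor SPDEF and folding factor AGR2. These genes were described from 5 lists, in Lep over Par, with adjusted p-values from limma over all genes. The fit treats each library as a replicate, so these p-values rest on a spread that may be technical. They do not measure how far another derivative would differ. Together, 28 of 67 tested list genes were called in HCC1954 (41.8%, against 26.8% of all tested genes) and 19 of 57 in PC9 (33.3%, against 15.1%). Since the lists were chosen with earlier results of these data known, nothing is read from these shares. Of 15 tested genes of the mucous secretory programme in HCC1954, 5 were called higher and 3 lower, against 13% and 13.8% of all tested genes, with a median log2 fold change of 0.63, against -0.02 over all tested genes. PIGR, the receptor that carries immunoglobulins across epithelia, rose to 27248 ± 1314 normalized counts in Lep, against 2104 ± 67.2 in Par (log2 fold change 3.69 ± 0.08, adjusted p = 1.6e-13), and CREB3L1, a secretory pathway transcription factor, rose by 1.70 ± 0.19 (adjusted p = 1.3e-06). AGR2, a disulfide isomerase needed to fold MUC2, fell to 165 ± 19.3 in Lep, against 2331 ± 41.9 in Par (log2 fold change -3.82 ± 0.07, adjusted p = 4.3e-14), and the secreted protein WFDC2 fell to 82.7 ± 23.0, against 1813 ± 56.8 (log2 fold change -4.47 ± 0.27, adjusted p = 2.5e-09). AGR2 averaged 1976 ± 164 in Int, where MUC5B and MUC16 were low, and SPDEF averaged 2500 ± 36.2 in Lep cells and 1786 ± 84.9 in Par cells (log2 fold change 0.49, under the fold threshold).

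In PC9, 4 of 11 genes of the mucous programme were called higher in Lep and 1 lower, against 6.65% and 8.49% of all tested genes, with a median log2 fold change of 0.96, against 0.02 over all tested genes. SPDEF rose to 139 and 453 normalized counts in Lep, against 31.9 to 69.6 in Par (log2 fold change 2.49 ± 0.48, adjusted p = 0.00055), was at 242 and 264 in Int, and fell to 10.6 to 30.2 in BrM (log2 fold change over Par -1.31 ± 0.43, adjusted p = 0.025). BPIFB1, a secreted airway protein, rose to 670 ± 51.8 in Lep, against 118 ± 6.87 in Par (log2 fold change 2.50 ± 0.21, adjusted p = 5.2e-07), and fell to 35.0 ± 6.61 in BrM (-1.74 ± 0.19, adjusted p = 1.1e-05). CREB3L1 rose by 2.12 ± 0.32 (adjusted p = 6.9e-05) and the trefoil factor TFF1 by 1.69 ± 0.35 (adjusted p = 0.0009), whereas the transcription factor FOXA2, which averaged 2.67 ± 1.41 in Lep and 32.5 ± 3.85 in Par, fell by 3.24 on the log2 scale (adjusted p = 9.7e-07). SPDEF and BPIFB1 thus had the order of stages seen for MUC5B, Lep and Int above Par and BrM below it.

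The GALNT list had 2 genes called higher and 5 lower of 14 in HCC1954 Lep, and 1 higher and 4 lower of 12 in PC9 Lep, where 26.8% and 15.1% of all tested genes were called in either direction. Its median log2 fold change was -0.04 in HCC1954 and -0.34 in PC9. In HCC1954, GALNT10 (log2 fold change -2.35 ± 0.05, adjusted p = 5.7e-14) and GALNT12 (-1.78 ± 0.09, adjusted p = 5.8e-10) fell, and GALNT14 (2.11 ± 0.04, adjusted p = 3.6e-14) and GALNTL4 (1.21 ± 0.05, adjusted p = 3.1e-11) rose. In PC9, GALNT14 (-5.33 ± 0.24, adjusted p = 7.6e-09), GALNT13 (-5.35 ± 0.67, adjusted p = 1.7e-05), GALNTL4 (-4.08 ± 0.21, adjusted p = 1.7e-08) and GALNT9 (-1.48 ± 0.18, adjusted p = 1.6e-05) fell, and GALNT12 rose by 1.26 ± 0.16 (adjusted p = 1.7e-05). The most abundant transferase genes differed less, GALNT2 by 0.57 and GALNT1 by 0.37 in HCC1954 Lep over Par.

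Of core and capping genes, 3 were called higher and 1 lower of 17 in HCC1954 Lep, and 2 in each direction of 15 in PC9 Lep. In HCC1954 this is close to the 26.8% of all tested genes, and in PC9 15.1% of all tested genes were called. The list's median log2 fold change was 0.49 in HCC1954 and 0.05 in PC9. GCNT3, which makes branched mucin cores, rose to 404 ± 42.3 normalized counts in HCC1954 Lep, against 38.0 ± 3.71 in Par (log2 fold change 3.38 ± 0.13, adjusted p = 2.9e-11), and ST6GALNAC1, which makes the sialyl-Tn antigen, rose by 2.49 ± 0.15 (adjusted p = 2.7e-09). B3GNT3 fell by 1.40 on the log2 scale (adjusted p = 1.8e-10) and ST6GALNAC6 rose by 1.15 ± 0.07 (adjusted p = 1.6e-09). In PC9 Lep the sialyltransferase ST6GALNAC2 rose by 1.44 ± 0.21 (adjusted p = 5.9e-05), the fucosyltransferase FUT3 rose by 1.13 ± 0.18 (adjusted p = 0.00012) and ST3GAL2 fell by 1.43 (adjusted p = 8.2e-05).

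Partners of membrane mucins and their sheddases had 3 genes called higher and 2 lower of 12 in HCC1954 Lep, and 2 higher and 1 lower of 12 in PC9 Lep, beside 26.8% and 15.1% of all tested genes. The median log2 fold change of the list was 0.40 in HCC1954 and -0.08 in PC9. ERBB2, the receptor that MUC4 can bind, rose to 146955 ± 3263 normalized counts in HCC1954 Lep, against 58268 ± 1158 in Par (log2 fold change 1.33 ± 0.03, adjusted p = 1.5e-13), and MET rose by 1.17 ± 0.04 (adjusted p = 4.2e-12), MMP14 by 1.30 ± 0.10 (adjusted p = 2.8e-08), while LGALS3 fell by 1.10 (adjusted p = 1.7e-10). MSLN, the cell surface protein mesothelin that binds MUC16, fell in HCC1954 to 7.04 to 13.0 normalized counts in Lep, against 62.8 to 77.9 in Par (log2 fold change -2.82 ± 0.31, adjusted p = 1.8e-06). In PC9 it rose to 1533 ± 193 in Lep, against 299 ± 54.3 in Par (2.36 ± 0.14, adjusted p = 3.7e-08). LGALS3 rose in PC9 Lep by 1.72 ± 0.08 (adjusted p = 1.3e-08) and EGFR fell by 2.46 (adjusted p = 9.1e-09). Both MSLN and LGALS3 thus differed in the same direction as MUC16 in both lines, as did GALNT12 among the GALNT genes.

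Of other mucin and sialomucin genes, 3 were called higher and 1 lower of 9 in HCC1954 Lep and 2 higher of 7 in PC9 Lep, beside 26.8% and 15.1% of all tested genes. The median log2 fold change was 0.45 in HCC1954 and 0.36 in PC9. MUC6, the gastric gel-forming mucin whose gene neighbours MUC2, MUC5AC and MUC5B on chromosome 11, fell in HCC1954 to 17.4 ± 8.74 normalized counts in Lep, against 46.3 ± 5.55 in Par (log2 fold change -1.45 ± 0.27, adjusted p = 0.00023). In PC9 it rose to 66.6 ± 20.9 in Lep, against 6.29 ± 0.991 in Par (3.19 ± 0.63, adjusted p = 0.00063). MCAM, a cell adhesion molecule also counted in this list, rose in both, by 2.17 ± 0.27 in HCC1954 (adjusted p = 5.2e-06) and by 2.62 ± 0.10 in PC9 (adjusted p = 5.1e-09). MUC6 differed in the direction of MUC5B in both lines, and MCAM differed in the direction of MUC5B in PC9 only.

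**Figure D5:**
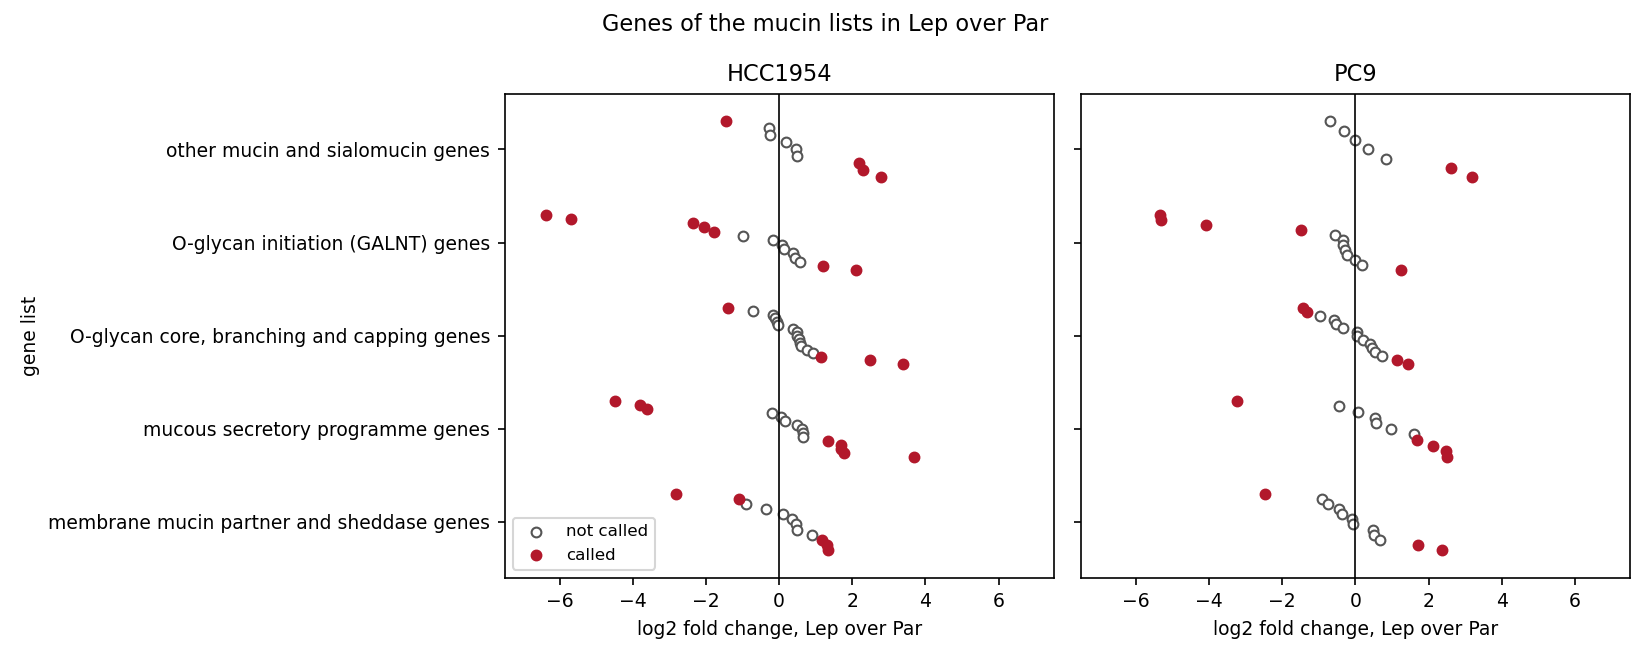
Log2 fold changes of Lep over Par (horizontal axis) for every tested gene of the 5 mucin-related lists in HCC1954 and PC9, 1 point per gene, filled where the call threshold was passed. Called genes lie on both sides of 0 in each list except other mucins in PC9, with 28 called in HCC1954 and 19 in PC9.

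In MDA-MB-231 Lep over Par, limma and edgeR called 0 of 58 list genes, where limma called 0.0662% of all tested genes. DESeq2 called 3 list genes and 274 of all tested genes. At an unadjusted limma p under 0.05 there were 2 other mucin genes, 2 GALNT genes, 4 core and capping genes, 4 mucous programme genes and 2 partners. Over all tested genes there were 1599 of 15106. AGR2 averaged 969.5 ± 529.7 normalized counts in Lep, 616 ± 255 in Int and 127 ± 35.5 in Par, and was called in Int over Par (log2 fold change 2.25 ± 0.49, adjusted p = 0.028) but not in Lep over Par (2.85 ± 0.49, adjusted p = 0.082). FCGBP, a mucus protein that binds MUC2, rose to 469 ± 42.0 in Int, against 125 ± 41.4 in Par (1.95 ± 0.49, adjusted p = 0.041). In LLC, 9 of 49 list genes were called in Lep over Par (18.4%, near the 20.3% of all tested genes), 2 higher and 7 lower, among them Creb3l1 (-4.64 ± 0.40, adjusted p = 4.5e-06) and Galnt10 (-5.18 ± 0.21, adjusted p = 2.1e-08).

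The genes whose log2 values were most like a mucin gene's, by Pearson correlation over the 10 libraries of a model and for mucin genes that spanned at least 2 on the log2 scale, were ANXA9 and GEMIN6 for MUC5B (both r = 0.996), CD109 (0.995) and BHLHE41 (0.994) for MUC16 and SMARCA1 and PEAR1 (both 0.993) for MUC4 in HCC1954. In PC9 they were S100A9 (0.999) and PECAM1 (0.998) for MUC5B, TMPRSS4 (0.991) and PKN3 (0.988) for MUC16, PCGF1 (0.994) and RBKS (0.993) for MUC1, and STEAP4 (0.996) and CCDC64 (0.994) for MUC20. In MDA-MB-231 they were ABLIM3 (0.979) and TMED10 (0.977) for MUC5B and ALDH8A1 (0.973) and PTGES (0.970) for MUC2. These libraries share 4 stages, and the best match among all tested genes is high by selection, so the coefficients describe these libraries only.

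Some features of the libraries moved with these results. In bulk RNA, fewer cells with a transcript and less of it per cell cannot be told apart. All 6 epithelial markers had a row and none was at 0 throughout a stage in the human models. Their summed level in HCC1954 was 63539 to 65180 normalized counts in Lep, 116849 to 118094 in BrM, 109031 to 118890 in Int and 202319 to 204319 in Par, the lowest in Lep and the highest in Par as for MUC5B. In PC9 it was 417697 to 446433 in Lep, 334632 to 377940 in BrM, 472696 to 483501 in Int and 221080 to 235041 in Par. There it was higher than in Par in Lep and Int, as for MUC5B, and also in BrM, where MUC5B, MUC16 and MUC20 were below Par. The sum of 4 endothelial markers, which include PECAM1, was 521 to 626 in HCC1954 Lep, 4891 to 4927 in BrM, 765 to 792 in Int and 885 to 971 in Par, and in PC9 843 to 1140 in Lep, 267 to 285 in BrM, 882 to 910 in Int and 270 to 315 in Par. In MDA-MB-231 it was 83.7 to 290 in Lep, 42.9 to 103 in BrM, 418 to 957 in Int and 46.9 to 51.8 in Par, highest in Int as for MUC5B. The epithelial sum in MDA-MB-231 did not have the order of MUC5B. It was 50874 to 72719 in Lep, 80677 to 93502 in BrM, 37944 to 40805 in Int and 36632 to 104891 in Par. Of the 4 endothelial markers, 3 had a mean of at least 10 in PC9 Lep, 1 in PC9 BrM and 2 in PC9 Int and Par. In each MDA-MB-231 stage 2 did.

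Markers of other cell types moved with some mucin genes as well. The sum of 6 macrophage and microglia markers was 2539 to 2827 normalized counts in HCC1954 Lep, 992 to 1045 in BrM, 1052 to 1384 in Int and 2878 to 2952 in Par, highest in Par and lowest in BrM and Int as for MUC4, with no marker at 0 throughout a stage. In PC9 it was 3205 to 4568 in Lep, 2278 to 2459 in BrM, 2980 to 3139 in Int and 3172 to 3301 in Par, lowest in BrM, where AIF1 and EMR1 were at 0, AIF1 being at 0 in Int too. Only 3 of the 6 macrophage and microglia markers had a mean of at least 10 in HCC1954 Int and in each PC9 stage. In HCC1954 Lep, BrM and Par 4 did. The sum of 4 choroid plexus and ependyma markers, of which the defining marker TTR was at 0 in every PC9 and HCC1954 stage, was 74.8 to 75.2 in PC9 Lep, 23.1 to 32.8 in BrM, 69.8 to 76.2 in Int and 33.1 to 43.2 in Par, in the order of MUC5B but with Lep and Int overlapping. In MDA-MB-231 it was 13.0 to 17.2 in Lep, 15.8 to 21.4 in BrM, 41.6 to 54.0 in Int and 12.3 to 15.1 in Par, highest in Int as for MUC5B, with TTR at 0 in Lep and Par. The sum of 4 meningeal fibroblast and pericyte markers, none at 0, was 4070 to 4354 in HCC1954 Lep, 1464 to 1560 in BrM, 2327 to 2873 in Int and 3054 to 3090 in Par, an order that no mucin gene had there, and in PC9 1484 to 1506 in Lep, 1193 to 1378 in BrM, 1538 to 1548 in Int and 1241 to 1388 in Par. In MDA-MB-231 Int the macrophage and microglia sum (11185 to 12600) overlapped every other stage, as did the meningeal fibroblast and pericyte sum (1844 to 2116). Of the 4 choroid plexus and ependyma markers, 1 had a mean of at least 10 in each PC9 stage, and at most 1 in each MDA-MB-231 stage. Such sums therefore rest on part of a list and do not show that its markers moved together. The part of these markers in the mucin results was not tested.

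Transcript length moved with some libraries as well, which bears on mucins because MUC16, MUC4, MUC5B and MUC2 have over 12 kilobases of exons. Spearman's correlation, across about 88% of the tested genes, of a gene's deviation from its model mean with exonic length was -0.39 and -0.33 in PC9 Lep, 0.23 to 0.34 in BrM, -0.40 and -0.36 in Int and 0.27 to 0.29 in Par. Genes with at least 10 kilobases of exons had a median log2 fold change of -0.45 in PC9 Lep over Par (1485 genes), against which MUC5B, MUC16 and MUC4 were higher. In MDA-MB-231 the correlation was 0.19 and -0.0036 in Lep, -0.07, -0.41 and -0.39 in BrM, 0.39 and 0.38 in Int, and 0.40, -0.31 and -0.38 in Par, and the long genes had a median of 0.50 in Int over Par (1579 genes), the direction of MUC5B and MUC2 there. In HCC1954 it stayed between -0.04 and 0.06. The part of length in the mucin values was not tested.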

How the data were processed

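Per the submitters' processing notes, the tools were FastQC 0.11.3, HTSeq 0.5.4 and DESeq2, with GRCh37 (hg19) as the human build and GRCm38 (mm10) as the mouse build; which aligner was used is not stated there. The authors deposited 1 table per model of normalized counts, a signal made of read counts divided by a size factor per library, with genes named by symbol. Per the labels, 500 ng of RNA went into each library, which was read as pairs of 50 bases (75 for MDA-MB-231). Whole reads were recovered from the deposited values for the count tests.

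From these values, genes with at least 10 in at least 2 libraries were tested with limma 3.58.1 (trend, R 4.3.3) after a pseudocount of 1 and log2, fitting a model's libraries of all stages together, with Benjamini-Hochberg adjustment. All tests are two-sided. The main unit is not a whole number, so edgeR 4.0.16 and DESeq2 1.42.0 on recovered reads were alternatives, with quantile normalization, no filter, a pseudocount of 8, Lep and Par libraries only, a replicate block and each library left out. Fold changes on this log2(value + pseudocount) scale understate the change of low genes.

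The mucin genes and the gene lists were chosen with earlier results of these data known. Named list genes were those called in Lep over Par without overlap of libraries and with a higher mean of at least 100, at most 4 per list and model, plus list genes on which a statement turns. Likeness was taken for mucin genes with a stage mean of at least 100 and a span of at least 2 on the log2 scale. No pairing of replicate numbers is stated. Exonic lengths, overlaps and repeats come from GENCODE v29, a GRCh38 annotation, and promoters from RefSeq, matched by symbol.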

Additional observations from a re-analysis of the deposited data

Results flagged for a closer look

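The results given here ran in opposite directions in different models, with every library of the derivative on one side of every Par library in each. The difference between models was not tested, because the tables were normalized separately. Every stage had fewer than 4 libraries, so no library was examined for a gap to the others.

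MUC5B differed in Lep over Par by a log2 fold change of -4.56 in HCC1954 and 2.51 in PC9, and in Int over Par by -3.41 in HCC1954, 1.97 in PC9 and 6.76 in MDA-MB-231. MUC16 differed by -3.36 and 1.45 in Lep over Par and by -3.64 and 1.04 in Int over Par, in HCC1954 and PC9 in that order. MUC4 differed by -1.13 and 1.70 in Lep over Par and by -2.86 and 1.25 in Int over Par in the same order of models. MUC20 differed in BrM over Par by 1.11 in HCC1954 and -1.03 in PC9.

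Among list genes in Lep over Par, MSLN differed by -2.82 in HCC1954 and 2.36 in PC9, LGALS3 by -1.10 and 1.72, GALNT12 by -1.78 and 1.26, and GALNT14 by 2.11 and -5.33. GALNTL4 differed by 1.21 in HCC1954, -4.08 in PC9 and -2.07 in LLC. CREB3L1 differed by 1.70 in HCC1954, 2.12 in PC9 and -4.64 in LLC, MMP14 by 1.30 in HCC1954 and -1.05 in LLC, and ST6GALNAC2 by 1.44 in PC9 and -1.47 in LLC.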

How the results depend on the processing

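Unless named here, the counts of called mucin, list and tested genes in Lep over Par stayed within 1.5 times under each alternative that gave a value. The 5 mucin genes called in HCC1954 became 3 with a pseudocount of 8. In MDA-MB-231, 0 mucin genes, 0 list genes and 10 of all genes became 2, 3 and 274 with DESeq2, and the 10 became 4 with Lep and Par libraries only. Leaving out 1 library gave 0 to 1 (1 without Lep replicate 2, BrM replicate 2 or Par replicate 1), 0 to 2 (2 without Par replicate 1) and 3 to 112 there (112 without Par replicate 1, 86 without Lep replicate 2, 42 without Lep replicate 1 and 26 without BrM replicate 1), against 4 to 5 mucin genes in HCC1954, 5 to 6 in PC9 and 0 in LLC. Near-zero changes reversed: MUC1 in HCC1954 with quantile normalization (-0.04), Muc1 in LLC with edgeR (-0.01) and without 1 library (-0.44 to 0.35), and MUC15 in MDA-MB-231 without 1 library (-0.80 to 1.02). Chosen after the data were seen, DESeq2 called 2 mucin genes instead of 1 in MDA-MB-231 Lep over BrM, and of 36 called differences outside Lep over Par, 28 were called whichever library was left out, and 1, MUC15 in PC9 Lep over BrM, was below the filter in 2 of the fits. Same-numbered Lep and Par libraries deviated together with correlations of -0.03 to 0.37, below 0.1 in all but 1 pair, replicate 1 of MDA-MB-231. Deviations within so few libraries cannot show whether the numbers pair samples. A replicate block called 5 mucin genes in HCC1954, 5 in PC9, 0 in MDA-MB-231 and 0 in LLC, and 12 of all genes in MDA-MB-231. The cause of each shift was not tested. At these depths mucin genes under about 10 normalized counts, such as MUC13, cannot be ordered.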

Other observations

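Some genes of the mucin-related lists separated the other derivatives from Par, with adjusted p-values from limma over all genes of a model. These p-values too rest on a spread between libraries that may be technical. In HCC1954 BrM, where MUC1 and MUC20 were highest, PIGR rose to 83991 ± 2363 normalized counts, against 2104 ± 67.2 in Par (log2 fold change 5.32 ± 0.09, adjusted p = 4.2e-14). FCGBP, a mucus protein that binds MUC2, rose there to 2205 ± 13.7, against 101 ± 14.4 in Par (4.44 ± 0.11, adjusted p = 1.3e-12), and XBP1, a transcription factor of secretory cells, rose by 1.72 ± 0.04 (adjusted p = 2e-13). WFDC2 fell to at most 1.05 normalized counts in BrM and Int, against 1748 to 1853 in Par.

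The cell adhesion molecule MCAM fell in HCC1954 BrM to 39.6 ± 11.7 and in Int to 34.9 ± 24.1 normalized counts, against 358 ± 0.417 in Par (log2 fold changes -3.18 ± 0.30 and -3.50 ± 0.30, adjusted p = 4.2e-07 and 1.8e-07), although it rose in HCC1954 Lep. In PC9 BrM, where MUC5B was lowest, MCAM rose by 3.44 ± 0.09 (adjusted p = 7e-11) and the sialomucin PODXL rose to 5178 ± 133, against 1213 ± 56.3 in Par (2.09 ± 0.06, adjusted p = 8.1e-11). Of the GALNT genes that fell in PC9 Lep, 3 also fell in PC9 BrM, namely GALNT13 (-2.29 ± 0.60, adjusted p = 0.0078), GALNT14 (-1.41 ± 0.21, adjusted p = 0.00019) and GALNTL4 (-1.18 ± 0.19, adjusted p = 0.00027).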
